A study of Mus musculus with 61 samples.

Results

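The genes described here encode the proteasome: every protein-coding mouse gene whose symbol starts with Psma, Psmb, Psmc, Psmd, Psme, Psmf or Psmg and goes on with a number, plus Pomp. The rule takes 50 of the 55401 gene identifiers counted in 61 RNA libraries of sorted nuclei from the nucleus accumbens. Male mice carried the LSL-eGFP::L10a transgene, which joins a green fluorescent protein to the ribosomal protein L10a and is switched on by Cre, together with D1-Cre or D2-Cre, drivers of the dopamine receptor D1 and D2 classes of striatal projection neuron. All groups share the L10a transgene, while the Cre driver differs between the D1 and D2 groups, and the tag marks cells in which the driver has been active at any time. Mice had a daily injection of saline or morphine for 15 days, stayed 30 days in the home cage, and died 1 h after a last injection of either. SS and SM stand for repeated saline followed by a saline or a morphine challenge, and MS and MM for repeated morphine followed by either. D1 nuclei gave 8 SS, 8 SM, 9 MS and 7 MM libraries, and D2 nuclei gave 7 SS, 7 SM, 8 MS and 7 MM. Nothing in the labels says whether each library came from its own animals, so p-values measure the spread between these libraries, which may be partly technical.

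The proteasome is the protease that breaks down proteins tagged with ubiquitin. Its core particle stacks rings of alpha and beta subunits, with the cutting sites inside on a few beta subunits, and a regulatory particle of ATPase and non-ATPase subunits caps it to bind, unfold and feed in the substrate. Other caps open the core without ATP, immune signals swap the cutting subunits for inducible ones, and dedicated chaperones build each particle. Neurons rely on it at synapses and in the nucleus, and a transcription factor, Nfe2l1, raises proteasome genes together when proteasome activity is short.

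Libraries held between 11518606 and 26108954 counts (median 17924400). Reads over 1135 olfactory receptor genes, a family at home in the nose, served as a measure of background, which need not be the same for every gene. Their density, in CPM (counts scaled to the library total) per kb of gene span, lay at 0.504 ± 0.113 (SD, n = 61). D1 SS replicate 1 stood apart with 0.0621, while the next lowest library had 0.276. Its scaling factor in the joint fit was 0.388, so results for D1 are given with and without it. Spread over the 1085.705 kb of the 50 genes, the density would account for 59.0 ± 15.3% (SD, n = 61) of their counts, from 6.25% in D1 SS replicate 1 to 86.1%. The 50 genes summed to 940 ± 54.9 unscaled CPM (SD, n = 61), and D1 SS replicate 1, at 1079, lay inside the range of 852 to 1094. Drd1 stood at a median of 25.3 times the density in D1 and 4.84 times in D2 libraries, and Drd2 at 2.22 and 22.6 times. Markers of each projection neuron class also reached 2 times in the other class. For D1 projection neurons 6 of 7 did in D1 and 4 of 7 in D2 libraries, and for D2 projection neurons 4 of 5 did in each. Of the other cell types' markers, 0 of 5 for microglia, 0 of 4 for endothelial cells and 0 of 5 for cortical neurons reached 2 times in either class, against 1 of 5 for astrocytes (Aldoc) and, in D1 alone, 1 of 5 for oligodendrocytes (Mbp). Interneuron markers reached it for 2 of 5 in D1, Sst at 15.8 and Npy at 2.12, and for 1 of 5 in D2, Sst at 7.19.

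Levels below are ratios, the CPM per kb of a gene divided by the olfactory receptor density of the same library. A ratio of 1 means as many reads per kb as over the olfactory receptor genes. Different genes are compared as reads per kb of whole span, introns included, so their order need not be that of their RNA amounts. By the mean over 61 libraries, 30 of 50 proteasome genes (60%) stood at 2 or more, by the same mean without D1 SS replicate 1 24 did, and by the median 21 of 50 (42%). Over 21897 protein-coding genes these shares were 29.2% and 18.9%. The threshold runs between close neighbours, with Psmd12 at a mean of 2.03 and Psmg2 at 2.05 just inside, and Psmd5 at 1.97 and Psmd11 at 1.96 just outside. The 4 highest means belonged to Psmb6 (4.66), Psme3 (4.41), Psmc4 (4.30) and Psmd3 (4.18), and the 4 lowest to Psmd10 (0.738), Psmb8 (0.799), Psmg3 (0.861) and Psme2b (0.927). Means lean on D1 SS replicate 1, in which Psme3 reached 48.2 and Psmd3 46.2, and the 4 highest genes by median are Psmb6, Psmc4, Psme3 and Psmd3.

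**Figure D1:**
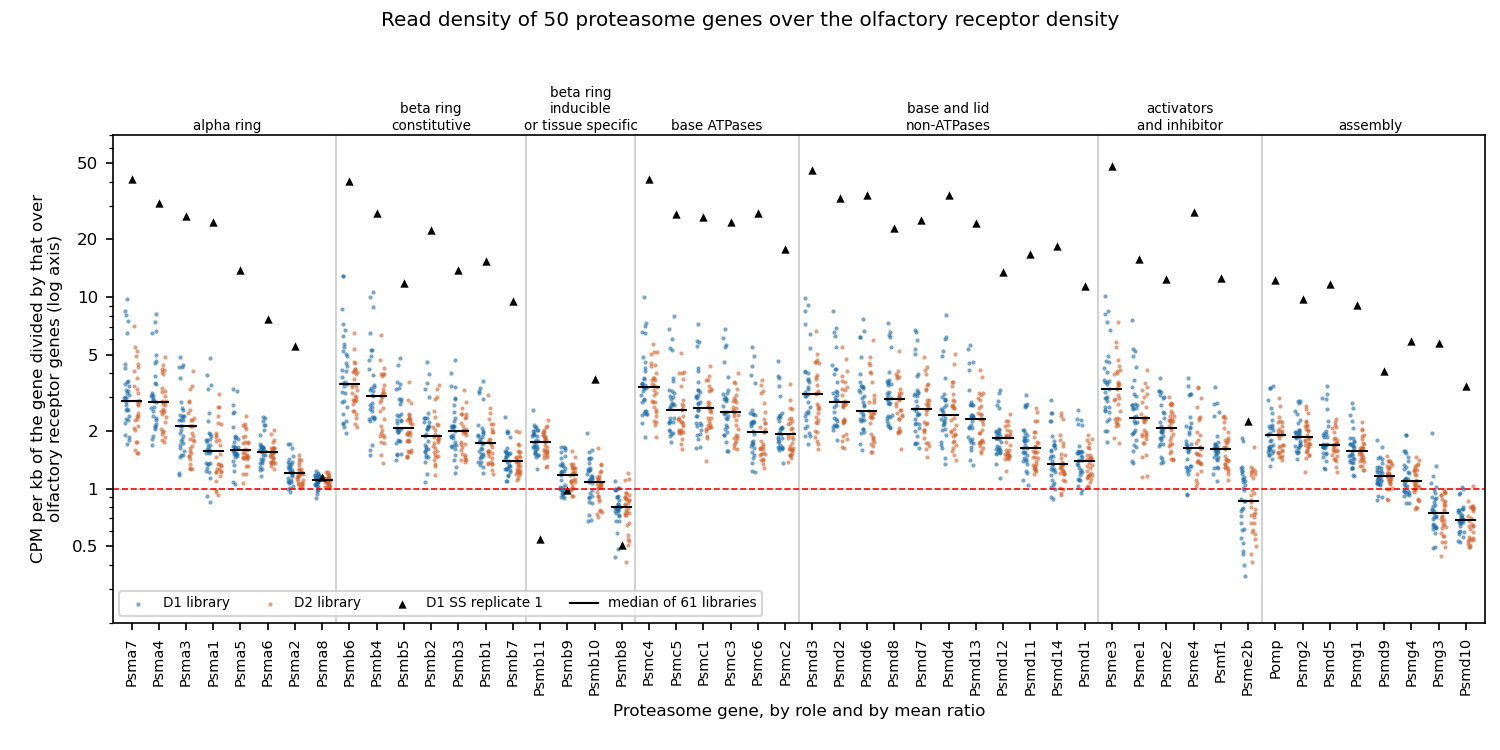
Each point is a library and each column a proteasome gene, with the CPM per kb over the olfactory receptor density on a log axis and the dashed line at equal densities. D1 SS replicate 1 (triangles) lies far above the other libraries for most genes, up to 48.2 for Psme3, but at 0.507 for Psmb8 and 1.15 for Psma8.

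In the beta ring, 6 of the 7 constitutive genes had a mean ratio of 2 or more (5 without D1 SS replicate 1, and 4 by the median), and 0 of the 4 inducible or tissue-specific ones did. The kinds overlap, as the thymus gene Psmb11 had a median of 1.75, above 1.72 for constitutive Psmb1 and 1.39 for Psmb7. Psmb6 (ENSMUSG00000018286.6, mm10 chromosome 11, 70525367 to 70527858), the caspase-like cutting subunit, had a ratio of 1.95 at the lowest, 3.53 at the median and 40.3 at the highest, where the next library had 12.9. It was at 2 or more in 60 of 61 libraries. Psmb5 (chromosome 14, 54614119 to 54618022), the chymotrypsin-like subunit that proteasome drugs bind, ran from 1.41 over a median of 2.07 to 11.8. Psmb7 (chromosome 2, 38588036 to 38644087), the trypsin-like subunit, ran from 1.10 over 1.39 to 9.48 and reached 2 in only 2 of 61 libraries. Its span is 56.1 kb, against 2.49 kb for Psmb6.

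Their inducible counterparts lay close to the background. Psmb8 (chromosome 17, 34197721 to 34201454), which replaces Psmb5 in immune cells, had ratios from 0.416 to 1.20 with a median of 0.80, and was above 1 in 6 of 61 libraries. Psmb9 (chromosome 17, 34181987 to 34187764), which replaces Psmb6, ran from 0.893 over 1.18 to 1.65. Psmb10 (chromosome 8, 105935735 to 105938444), which replaces Psmb7, ran from 0.680 over 1.09 to 3.73, the last in D1 SS replicate 1. In that library, where the background was lowest, Psmb8 stood at 0.507 and Psmb9 at 0.983. Psmb11 was at 0.544 in the same library. All of the Psmb10 span overlaps Gm16156 and 57.3% of the Psmb8 span overlaps Gm20496, both on the opposite strand. The strand setting of the counting is not given in the sources used here, so their counts are uncertain.

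To show the sequence next to each start, the 250 bases before the RefSeq start (GRCm38.p6) are given for 4 genes. The windows of 2 constitutive cutting subunits carry the antioxidant response element core TGACNNNGC, the kind of site through which Nfe2l1 is known to act. Those of their inducible counterparts do not. The Psmb8 and Psmb9 windows lie inside the gene spans given above, while those of Psmb5 and Psmb6 lie mostly or wholly before theirs. The windows are therefore not alike, and the sequence before the spans of Psmb8 and Psmb9 was not searched. Each window reads 5′ to 3′ on the strand of the gene, with matches to that core or to CCAAT, on either strand, in capitals.
Psmb5, chr14:54617996-54618245, minus strand: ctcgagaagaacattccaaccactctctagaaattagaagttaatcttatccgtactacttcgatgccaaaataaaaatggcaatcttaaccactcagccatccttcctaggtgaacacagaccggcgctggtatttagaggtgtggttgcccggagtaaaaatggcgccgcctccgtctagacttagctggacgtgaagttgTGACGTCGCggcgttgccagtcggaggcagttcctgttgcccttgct
Psmb6, chr11:70525107-70525356, plus strand: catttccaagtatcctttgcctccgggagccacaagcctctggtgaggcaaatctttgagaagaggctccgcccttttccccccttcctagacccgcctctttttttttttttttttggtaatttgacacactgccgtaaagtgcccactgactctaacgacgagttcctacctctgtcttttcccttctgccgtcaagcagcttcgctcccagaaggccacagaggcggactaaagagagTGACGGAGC
Psmb8, chr17:34197945-34198194, plus strand: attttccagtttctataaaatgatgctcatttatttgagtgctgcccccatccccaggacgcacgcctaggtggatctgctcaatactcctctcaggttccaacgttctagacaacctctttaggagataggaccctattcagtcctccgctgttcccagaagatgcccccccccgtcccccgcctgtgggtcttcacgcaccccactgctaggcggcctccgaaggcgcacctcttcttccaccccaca
Psmb9, chr17:34187331-34187580, minus strand: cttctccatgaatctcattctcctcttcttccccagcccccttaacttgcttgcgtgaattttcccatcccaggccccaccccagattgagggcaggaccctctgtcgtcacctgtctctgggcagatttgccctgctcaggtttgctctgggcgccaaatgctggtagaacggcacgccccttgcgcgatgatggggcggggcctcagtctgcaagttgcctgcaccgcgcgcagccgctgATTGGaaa
The core stood as TGACGTCGC from 47 bases before the start in Psmb5 and as TGACGGAGC from 9 bases before it in Psmb6. A window was in the table for 42 of the 50 genes. On either strand, 5 of them (11.9%) held the core, the others being Psmc6, Psmd12 and Psmd9, against 10.16% of all 32851 windows of this length. CCAAT was found in 14 (33.33%), among them Psma7, Psme3 and Psmd14, against 33.85% of all windows. No match to the core overlapped a match to CCAAT. A match is a run of letters, not a bound site, and no binding was measured here.

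The alpha ring, which gates the core, held 4 of 8 genes at a mean ratio of 2 or more, and 3 without D1 SS replicate 1. Psma7 (chromosome 2, 180036374 to 180042433) led it, with a ratio of 1.54 at the lowest, 2.87 at the median and 41.0 at the highest. Psma8, the form of Psma7's class found in the testis, ran only from 0.889 to 1.24 around a median of 1.10. Without D1 SS replicate 1 its mean was 1.10 ± 0.0701 (SD, n = 60), and in that library it was 1.15. The alpha gene of another tissue thus stayed close to the background density in every library, with 102 to 821 counts.

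**Figure D2:**
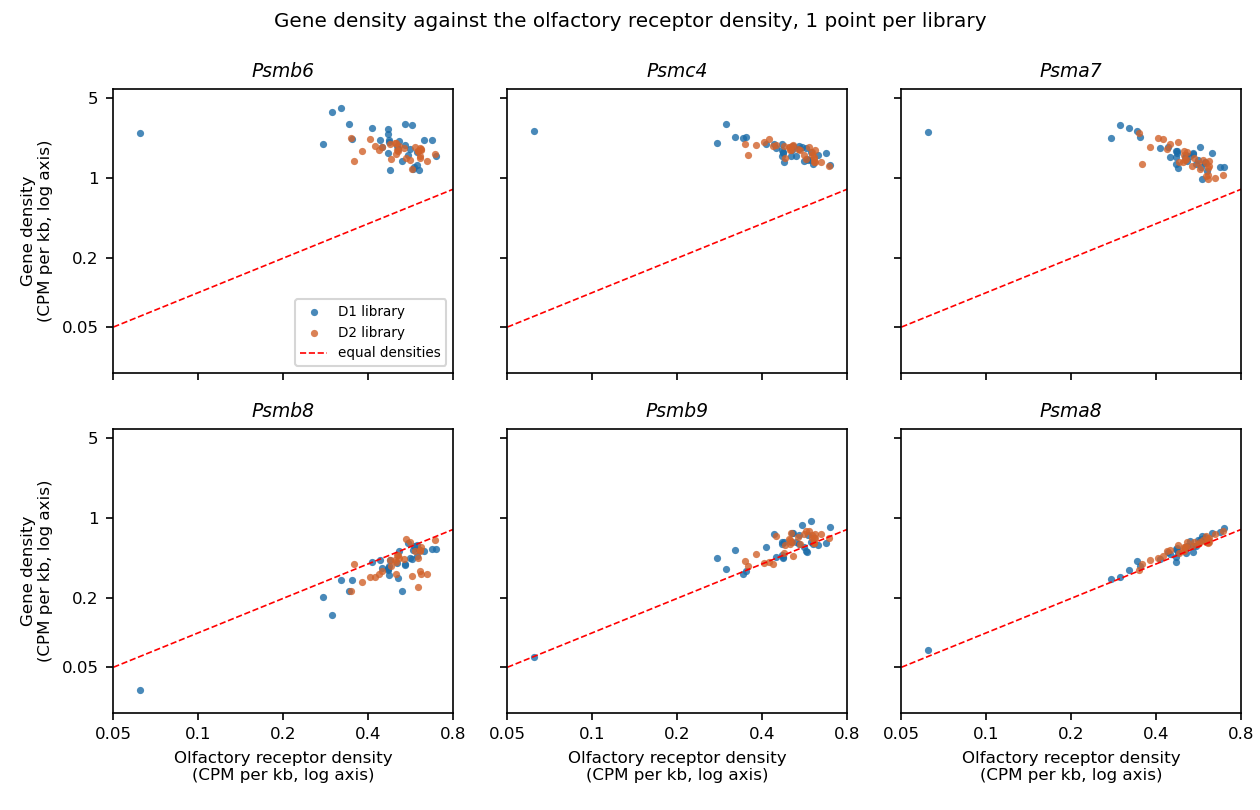
Each panel plots the unscaled CPM per kb of a gene against the olfactory receptor density of the same library, both on log axes, with the dashed line at equal densities. Psma8 follows the line from the lowest to the highest library with ratios of 0.889 to 1.24, whereas Psmb6, Psmc4 and Psma7 stay above it, with their highest ratios in the library of lowest density.

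Among the parts of the regulatory particle, all 6 ATPase genes of the base had a mean ratio of 2 or more, as did 8 of 11 non-ATPase genes of base and lid. These counts were 6 and 7 without D1 SS replicate 1. Medians ran from 1.92 (Psmc2) to 3.37 (Psmc4) for the ATPases, with Psmc1 at 2.64. Psmc4 (chromosome 7, 28041707 to 28050101) had a ratio between 1.85 and 41.3. Of the non-ATPases, Psmd3 (chromosome 11, 98682554 to 98695979), a lid scaffold, was highest by median at 3.10, and Psmd2, the large scaffold of the base, had 2.84. Psmd14, the lid protease that removes ubiquitin chains, was lowest at 1.34 over a span of 88.7 kb, and Psmd1, the other large base scaffold, had 1.40 over 74.8 kb.

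The caps and the inhibitor were mixed, with 4 of 6 at a mean of 2 or more, and 3 without D1 SS replicate 1. Psme3 (chromosome 11, 101316213 to 101323537), the cap found in nuclei, ran from 1.74 over a median of 3.31 to 48.2. Psme1 and Psme2, partners in the cap that interferon raises, had medians of 2.32 and 2.08. Psme4, a large nuclear cap, had 1.64 over a span of 108.6 kb, and Psmf1, which encodes an inhibitor of the core, had 1.61. Psme2b, a gene without introns that lies wholly inside other annotated genes, had 3 to 16 counts a library and was the 1 gene of the 50 left out of all tests by the filter on low counts. Of the assembly factors, 2 of 8 had a mean of 2 or more, Pomp (median 1.89) and Psmg2 (median 1.86), and 0 did without D1 SS replicate 1. Psmg1, which starts the alpha ring, had 1.57. Psmd10, a chaperone of the base on the X chromosome, had 0.688 at the median and stood above 1 in 3 of 61 libraries, and Psmg3, with 85.5% of its span shared with Gm26938 on the same strand, had 0.746.

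The median ratio was lower among long genes, with no steady decline from the shortest. It was 2.07 for the 9 genes up to 5 kb, 2.58 for the 12 up to 10 kb, 1.98 for the 13 up to 20 kb, 1.71 for the 8 up to 40 kb and 1.37 for the 8 longer ones. Across the 50 genes Spearman's rho was -0.30, and across 44 without Psma8, Psme2b and the 4 inducible or tissue-specific beta genes, left out with their low values known, it was -0.60. These are descriptions across genes that share libraries. Counts were taken over whole gene spans, introns included, as lengths recovered from the deposited values equalled the span. Of the 50 genes, 24 overlap another gene, and pseudogene copies of Psmb5, Psmb6 and Psmb7 are annotated, with which reads may be shared.

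**Figure D3:**
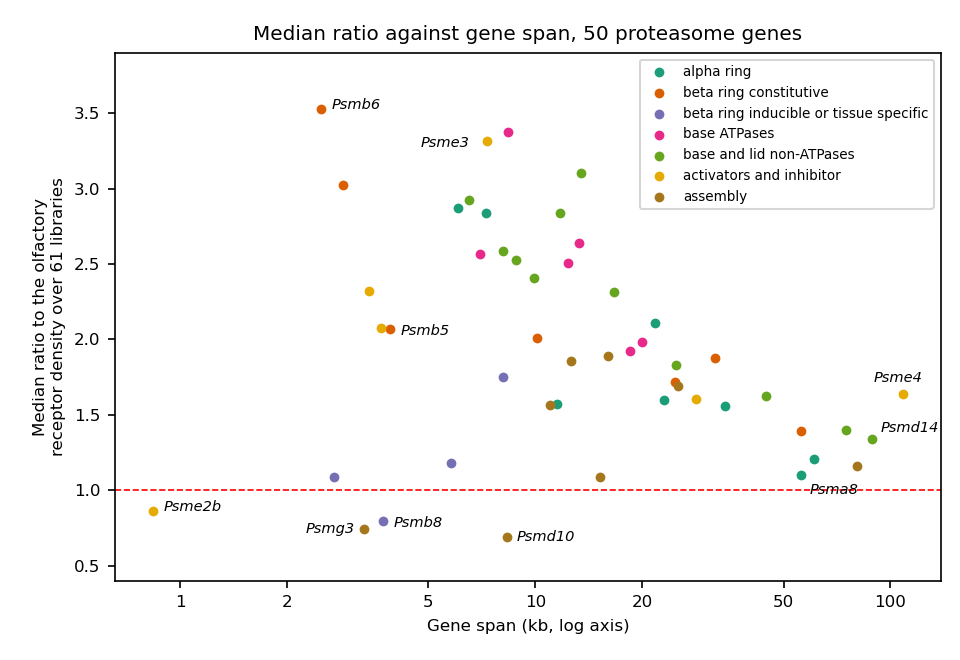
Each point is a proteasome gene, with its span in kb on a log axis and its median ratio to the olfactory receptor density over 61 libraries. Genes over 40 kb have medians of 1.10 to 1.64, and genes up to 10 kb range from 0.688 (Psmd10) to 3.53 (Psmb6).

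How the genes move with the background inside a group was fitted as a slope (edgeR, adjusted p over all genes). It is the change of the log2 scaled count per doubling of the olfactory receptor density, with the treatment group as a term. For the slope, counts are scaled by edgeR's factor as well as by the library total, so it is not the slope of the unscaled CPM used above. In D1, 42 of 49 proteasome genes were called lower with a higher density, where 36.3% of 41083 genes were, and 4 were called higher, where 49.7% were. In D2, 36 of 49 were lower (27.3% of 41125 genes) and 3 higher (34.2%). The median slope of the proteasome genes was -0.53 in D1 and -0.58 in D2, against 0.27 and 0.25 for all genes. Of the 49, 39 were called with the same sign in both classes. The share over all genes is not given here, and most genes tested were called in each class, so this count stands without its background. Density and scaled counts come from the same libraries, and a larger share for background leaves less for all else, so the 2 measures are not independent. DESeq2 size factors in place of edgeR's TMM moved the median slope of all genes to 0.13 in both.

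The genes called higher were Psma8 and inducible or tissue-specific beta genes. Psma8 had a slope of 0.55 ± 0.04 (SE, adjusted p = 5.43e-14) in D1 and 0.58 ± 0.07 (SE, adjusted p = 1.04e-08) in D2. Psmb8 had 0.77 ± 0.12 and 0.72 ± 0.24 (SE), and Psmb9 0.45 ± 0.10 and 0.40 ± 0.16 (SE), called in both. Psmb11 was called in D1 at 0.68 ± 0.09 (SE) and not in D2 at 0.21 ± 0.14 (SE, adjusted p = 0.185). Psmb10 passed in neither, with -0.05 ± 0.08 and -0.12 ± 0.21 (SE).

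Every ATPase gene, every constitutive beta gene, every non-ATPase gene of base and lid and every tested cap or inhibitor gene was called lower in both classes. The smallest p in D1 belonged to Psmb2 at -0.69 ± 0.04 (SE, adjusted p = 8.21e-19), Psmd1 at -0.47 ± 0.03, Psmc6 at -0.79 ± 0.04 and Psma5 at -0.50 ± 0.03 (SE), which encode a core beta subunit, a base scaffold, an ATPase and an alpha subunit. They were followed by Psmd11 at -0.55 ± 0.03, Psme4 at -0.82 ± 0.05, Psma3 at -0.75 ± 0.05 and Psmd14 at -0.68 ± 0.04 (SE). In D2 they belonged to Psma3 at -1.03 ± 0.11 (SE, adjusted p = 1.6e-10), Psmb2 at -0.88 ± 0.09, Psmd7 at -1.05 ± 0.12 and Psme3 at -1.15 ± 0.13 (SE). Psmc6 at -0.94 ± 0.11, Psmd3 at -1.23 ± 0.14, Psma7 at -1.42 ± 0.17 and Psmc4 at -0.91 ± 0.11 (SE) came next there. The steepest was Psmd3 in D1, at -0.94 ± 0.07 (SE), and Psma7 in D2. Caps ran from Psme3 (-0.89 in D1, -1.15 in D2) over Psme1 (-0.55, -0.92) and Psmf1 (-0.44, -0.60) to Psme2 (-0.33, -0.39).

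Assembly factors had shallower slopes, with medians of -0.27 in D1 and -0.13 in D2. In D1, 6 of 8 were called lower: Psmg3 at -0.39, Pomp at -0.39, Psmd5 at -0.38, Psmg1 at -0.27, Psmg4 at -0.27 and Psmg2 at -0.22. In D2, 2 were, Pomp at -0.31 ± 0.09 and Psmd5 at -0.23 ± 0.09 (SE). Psmd9 and Psmd10 passed in neither. Across 49 genes the slope followed the median ratio, with Spearman's rho of -0.71 in D1 and -0.77 in D2, which is a description, since both rest on the same density. Without D1 SS replicate 1, 39 were called lower in D1, with a median slope of -0.65, and the same number as before, 4, higher. The shares over all genes in that refit are not given here, so these counts are not set against them.

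**Figure D4:**
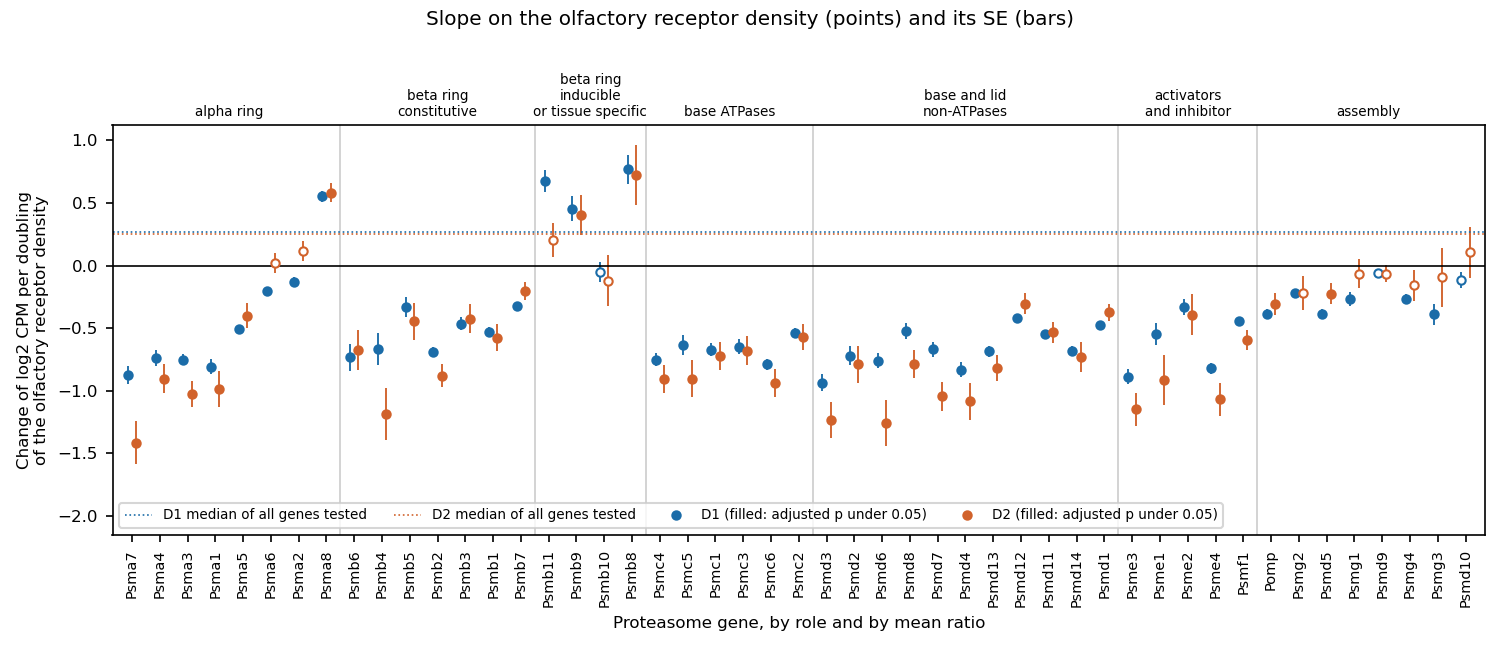
Points give the slope of the log2 count, scaled by edgeR's factors, on the log2 olfactory receptor density within treatment groups, bars its SE, and filled points an adjusted p under 0.05. Psma8, Psmb8, Psmb9 and, in D1, Psmb11 lie above 0, while the other genes called in a class lie below 0 in it, and the median of all genes lies at 0.27 (D1) and 0.25 (D2).

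In D1 nuclei no treatment comparison called a proteasome gene. SM, MS and MM were each set against the same SS libraries, so their values are not independent. In bulk nuclei, fewer cells of a type and less RNA per cell cannot be told apart. With SM against SS, the response to a single morphine injection, edgeR called 0 of 49 (0% of 41083 genes), 1 had an unadjusted p under 0.05 (1.87% of all genes), and DESeq2 and limma voom called 0 each. The genes leaned lower, 44 of 49, with a median log2 of -0.22 against -0.02 for all genes. Without D1 SS replicate 1 that turned to 35 of 49 higher and a median of 0.03, so the lean rests on this library. The olfactory receptor density itself stood above SS by a mean log2 of 0.27 in SM, 0.35 in MS and 0.13 in MM (exact permutation tests, two-sided, p = 0.717, 0.547 and 0.992). With that library left out, a check added after seeing the data, it stood below, by -0.12, -0.03 and -0.26 (p = 0.565, 0.838 and 0.140, same exact test), so its direction rests on that library as well.

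Psme4 shows the pattern. From here on, the CPM of groups are scaled by edgeR's factor from the fit in use as well as by the library total. A low factor raises them, and that of D1 SS replicate 1 is low, so its high values come partly from scaling. In SS Psme4 had 57.4 CPM at the lowest, 97.3 at the median and 462 at the highest, the last being D1 SS replicate 1, and in SM 60.4, 87.9 and 138. The SM values lay within the SS range. Its log2 difference was -0.60 ± 0.29 (SE), and 0.0020 without that library. Psmb9 at 0.38 ± 0.17 and Psmd10 at -0.21 ± 0.11 (SE) had the other smallest p-values (edgeR adjusted p = 0.955 for all). Psmb9, with 0.873, 2.73 and 4.46 CPM in SS and 3.15, 3.50 and 4.22 in SM, was above the SS median in 8 of 8 SM libraries, none of them above the highest SS value.

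After repeated morphine and a saline challenge, MS against SS in D1, 0 of 49 were called (0%) and 0 had an unadjusted p under 0.05 (2.68%). The median was -0.20 (46 lower) with all libraries and 0.04 (39 higher) without D1 SS replicate 1. Psme4 at -0.56 ± 0.28, Psmb9 at 0.32 ± 0.17 and Psmd14 at -0.44 ± 0.24 (SE, edgeR adjusted p = 0.824 for each) came closest. Psmd14 had 44.9, 64.6 and 252 CPM in SS against 46.7, 60.7 and 80.97 in MS (lowest, median, highest), and the MS values lie inside the SS range. After morphine at both times, MM against SS, 0 of 49 were called (0%), 0 passed unadjusted (1.92%), and the median was -0.08, against 0.18 without that library and 0.0037 by limma voom. Psmb7 at -0.22 ± 0.13, Psmb10 at 0.22 ± 0.13 and Psmd10 at -0.18 ± 0.12 (SE) did not pass (adjusted p = 1).

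The comparisons that leave SS out take no difference from that library, which enters them through the filter, the scaling and the dispersion estimate that the fit shares. The challenge after morphine, MM against MS in D1, called 0 of 49 (0%) with 1 at an unadjusted p under 0.05 (2.29%), and 41 were higher (median 0.11). MM against SM also called 0 (0%) with 1 (1.34%), and 44 were higher (median 0.16). In both, the gene with the smallest p was Psmb10, at 0.33 ± 0.12 and 0.34 ± 0.13 (SE, adjusted p = 0.988 and 1). It had 1.49, 1.76 and 2.03 CPM in MM (lowest, median, highest), 0.963, 1.29 and 1.70 in MS and 1.04, 1.39 and 1.53 in SM. The MM range lay mostly above those of MS and SM and overlapped both. Psmb6 was next in both, at 0.49 ± 0.31 and 0.52 ± 0.32, with Psma4 at 0.37 ± 0.27 against MS and Psmb4 at 0.50 ± 0.32 against SM (SE).

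Whether the response to the challenge differed by history in D1, the interaction, called 0 of 49 (0%), with 1 unadjusted (2.32%). The median was 0.40, and 0.11 without D1 SS replicate 1. Psmb10 at 0.44 ± 0.17, Psmb9 at -0.50 ± 0.25 and Psmc5 at 0.64 ± 0.35 (SE, edgeR adjusted p = 0.782 for each) came closest. With the olfactory receptor density as a covariate, the 6 D1 comparisons had medians of 0.00 (SM), 0.05 (MS), 0.08 (MM), 0.03 (MM against MS), 0.07 (MM against SM) and 0.02 (interaction), and 0 genes called in each.

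In D2 nuclei most proteasome genes were higher in MS than in SS, the comparison of histories under a saline challenge, without passing in edgeR. Of 49, 42 were higher in MS, with a median log2 of 0.26 against -0.05 for all genes. EdgeR called 0 (0% of 41125 genes), with a smallest adjusted p of 0.0713, and 28 had an unadjusted p under 0.05 (32% of all genes), 27 of them higher. DESeq2 called 25 of 49, all higher (15.4% of 31557 genes higher, 19.8% in either direction), and limma voom 0. The proteasome genes' share at an unadjusted p under 0.05 is above that of all genes, and many genes outside the proteasome also pass there.

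Psmd2, the base scaffold, had the smallest p. It had 10.9 CPM at the lowest, 14.2 at the median and 17.8 at the highest in SS, and 14.1, 20.4 and 28.0 in MS. In 6 of 8 MS libraries it was above the highest of the 7 SS libraries. The log2 difference was 0.54 ± 0.13 (SE, edgeR adjusted p = 0.0713). Psme3 had 7.68, 9.97 and 12.9 CPM in SS and 10.8, 14.5 and 23.5 in MS, with 5 of 8 above all SS values, and a log2 difference of 0.62 ± 0.16 (SE, adjusted p = 0.0713). Psma1, an alpha subunit, had 6.34, 7.57 and 9.49 in SS and 7.39, 10.97 and 15.5 in MS, with 5 of 8 above, and 0.51 ± 0.14 (SE, adjusted p = 0.0713). These ranges overlap, with MS shifted up.

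By role, the shift took in 11 of 11 non-ATPase genes (median 0.35), 6 of 6 ATPase genes (0.32), 7 of 7 constitutive beta genes (0.29), 5 of 5 caps and inhibitor (0.17), 6 of 8 alpha genes (0.23) and 6 of 8 assembly factors (0.12). Of the inducible and tissue-specific beta genes 1 of 4 was higher, with a median of -0.06. Pomp, the chaperone that completes the core, had 13.4, 14.6 and 15.4 CPM in SS and 15.3, 16.7 and 20.6 in MS, with 7 of 8 MS libraries above all SS values and 0.21 ± 0.07 (SE). The cutting subunits Psmb6 at 0.34 ± 0.13, Psmb5 at 0.19 ± 0.10 and Psmb7 at 0.07 ± 0.06 (SE) were higher by different amounts, and none passed. Psmb9, at the background, was at -0.22 ± 0.11, Psma8 at -0.07 ± 0.08 and Psmb8 at -0.0017 ± 0.17 (SE). Among other fixed genes, Psma7 was at 0.58 ± 0.20, Psme4 at 0.46 ± 0.15, Psmd14 at 0.33 ± 0.11, Psmc1 at 0.30 ± 0.11 and Psmf1 at 0.17 ± 0.09 (SE). Psme1 at 0.13 ± 0.16, Psmd1 at 0.11 ± 0.06, Psmb10 at 0.03 ± 0.12 and Psmg1 at -0.01 ± 0.08 (SE) had an unadjusted p above 0.05.

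Markers of cell types leaned as well between the same groups, with 0 called. All 5 of D2 projection neurons were higher in MS (median 0.84), as were 5 of 7 of D1 projection neurons (median 0.11). By contrast, 4 of 5 for astrocytes, 4 of 5 for microglia, 4 of 4 for endothelial cells, 5 of 5 for cortical neurons, 4 of 5 for interneurons and 3 of 5 for oligodendrocytes were lower. Their part in the shift of the proteasome genes was not tested. The background moved the other way between the same groups. The olfactory receptor density was 0.467 ± 0.0790 (SD, n = 8) in MS and 0.556 ± 0.0505 (SD, n = 7) in SS, a log2 difference of -0.27 (exact permutation test, two-sided, p = 0.0252, adjusted over 6 such comparisons 0.151). With the density as a covariate the median of the proteasome genes was 0.10, 40 of 49 were still higher, 6 had an unadjusted p under 0.05 and 0 were called. Leaving out each of the 15 libraries in turn kept the median between 0.21 and 0.29. Calls appeared when a library of MS was left out in 3 cases: 25 without replicate 4 (20.8% of genes called), 11 without replicate 5 (6.74%) and 23 without replicate 8 (18.5%). In the other 12 there were 0.

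**Figure D5:**
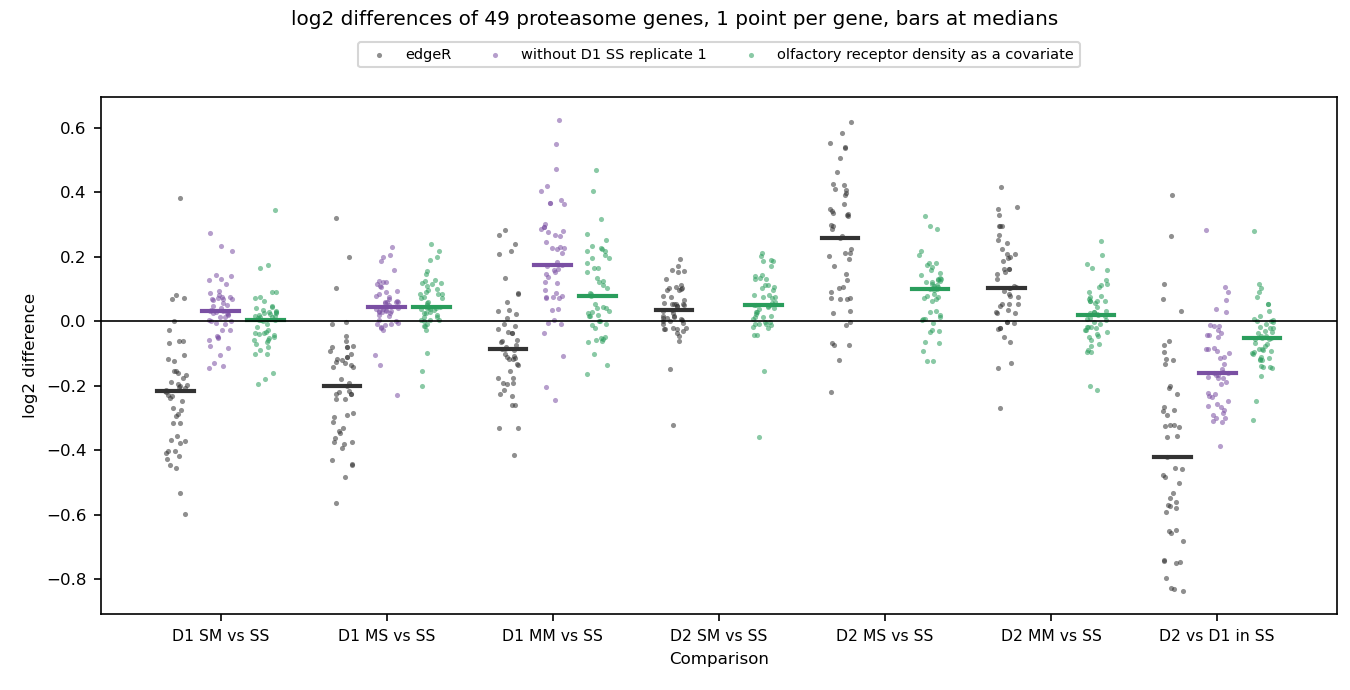
Points are log2 differences of 49 proteasome genes in 7 comparisons and bars their medians, from edgeR with all libraries, without D1 SS replicate 1 and with the olfactory receptor density as a covariate. The D1 medians of -0.22, -0.20 and -0.08 turn to 0.03, 0.04 and 0.18 without D1 SS replicate 1, and the D2 MS median of 0.26 becomes 0.10 with the covariate.

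The other D2 comparisons against SS, which use the same 7 SS libraries, were smaller. SM against SS called 0 of 49 (0%) with 0 at an unadjusted p under 0.05 (3.24%), and 36 were higher by a median of 0.04. Psmb8 at -0.32 ± 0.18, Psmb11 at -0.15 ± 0.09 and Psmd10 at 0.19 ± 0.13 (SE, edgeR adjusted p = 1) had the smallest p-values. MM against SS called 0 (0%) with 7 unadjusted (13.3%), 38 higher and a median of 0.10. Psme4 led, with 73.6, 80.9 and 90.1 CPM in SS and 71.5, 111 and 155 in MM. In 4 of 7 MM libraries it was above all SS values and in 1 below all. Its log2 difference was 0.42 ± 0.16, with Psmd14 at 0.29 ± 0.12 and Psmc6 at 0.33 ± 0.13 (SE, edgeR adjusted p = 0.361 for each).

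Within a morphine history, MM against MS in D2 called 0 (0%) with 5 unadjusted, all lower (3.76%), and 44 of 49 were lower by a median of -0.12. Pomp at -0.24 ± 0.07, Psmd2 at -0.38 ± 0.13 and Psme3 at -0.37 ± 0.16 (SE, adjusted p = 0.973 for each) came closest. Pomp had 13.3, 14.3 and 16.02 CPM in MM, close to its SS values and mostly below MS. Within a morphine challenge, MM against SM called 0 (0%) with 6 unadjusted (7.73%), 35 higher and a median of 0.07. Psmb8 at 0.48 ± 0.17, Psmb9 at -0.28 ± 0.11 and Psmc6 at 0.32 ± 0.13 (SE, adjusted p = 0.608 for each) led. Psmb8 had 0.892, 1.27 and 1.58 CPM in SM and 1.22, 1.74 and 2.39 in MM. The D2 interaction called 0 (0%) with 4 unadjusted (3.56%), 43 of 49 lower and a median of -0.12, with Pomp at -0.34 ± 0.10, Psmd2 at -0.53 ± 0.19 and Psme3 at -0.54 ± 0.23 (SE, edgeR adjusted p = 0.991 for each) closest.

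Between the cell classes, 44 of 49 proteasome genes stood below D1 in the D2 SS libraries, with a median log2 of -0.42 against 0.03 for all genes. EdgeR called 0 (0.0467% of 42870 genes), with a smallest adjusted p of 0.0983, and 35 had an unadjusted p under 0.05 (27.9%). The olfactory receptor density was 0.487 ± 0.129 (SD, n = 32) in D1 and 0.524 ± 0.0898 (SD, n = 29) in D2 over all treatments, a log2 difference of 0.17 (permutation test, two-sided, 100000 resamples, p = 0.160). DESeq2 called 33, 32 lower (23.4% of 39926 genes) and 1 higher (24.7% of genes in either direction), edgeR with DESeq2's size factors 29 (19.2%), and limma voom 0. Much of the size of this difference, and most of its low p-values, rest on D1 SS replicate 1. Without it the median, still negative, was -0.16, 2 had an unadjusted p under 0.05, and edgeR called 0. With the density as a covariate as well, a check not planned beforehand, the median was -0.07, and 40 of 49 were lower. In that fit 4 had an unadjusted p under 0.05, 2 in each direction, and edgeR called 0. Markers of other cell types differed in both directions. All 5 of cortical neurons were lower in D2 SS (median -0.82), Slc17a7 at -2.44 (SE 0.50, edgeR adjusted p = 0.0230). Among interneuron markers 2 of 5 were lower, with Sst at -1.85 (edgeR adjusted p = 0.0654), and 3 were higher. Most were higher in D2 SS for astrocytes (4 of 5), endothelial cells (3 of 4), microglia (3 of 5) and oligodendrocytes (3 of 5). Slc17a7 was at -0.48 and Sst at -1.34 when D1 SS replicate 1 was left out (adjusted p = 0.924 for both). Their part in the difference was not tested. Psme4 had 57.9, 99.4 and 482 CPM (joint scaling) in D1 SS, where the next highest library had 132, and 69.3, 77.6 and 88.2 in D2 SS. All D2 values lay inside the D1 range. The log2 difference was -0.83 ± 0.26, with Psmc6 at -0.74 ± 0.24 and Psmc5 at -0.68 ± 0.22 (SE, edgeR adjusted p = 0.0983 for each).

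In the other treatments edgeR again called 0. In SM (0.0303% of genes called, 0 unadjusted against 2.16%) the median was -0.14, with Psmb8 at -0.35 ± 0.19, Psma3 at -0.30 ± 0.23 and Psmd2 at -0.30 ± 0.24 (SE, adjusted p = 0.894). In MS (0.0746%, 0 against 2%) it was 0.07, with Pomp at 0.16 ± 0.11, Psmd13 at 0.22 ± 0.19 and Psmd10 at 0.13 ± 0.11 (SE, adjusted p = 0.999). In MM (0.056%, 4 against 4.89%) it was -0.19. Psmb6 had 4.85, 6.03 and 12.5 CPM in D1 MM and 3.51, 3.98 and 5.02 in D2 MM. The ranges overlap at the edge, and the log2 difference of -0.76 ± 0.26 did not pass (SE, edgeR adjusted p = 0.819). Psmb10 at -0.33 ± 0.12 and Psmd8, a lid subunit, at -0.41 ± 0.18 (SE) followed. Without D1 SS replicate 1 the medians were -0.14 in SM, 0.07 in MS and -0.19 in MM, with 0 called in each.

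Over the mean of the 4 treatments, edgeR called 0 (0.301%) with 20 unadjusted, all lower in D2 (12.2% of genes), and a median of -0.16. Psmb6 at -0.40 ± 0.13, Psmd8 at -0.25 ± 0.09 and Psmc5 at -0.31 ± 0.11 (SE, edgeR adjusted p = 0.299, 0.355 and 0.355) led. Without D1 SS replicate 1 the median was -0.09, and with the density as a covariate it was -0.03 with 4 unadjusted. Over the same mean, Sst at -1.27 (edgeR adjusted p = 5.55e-05), Npy at -0.45 (0.00103) and Slc17a7 at -1.01 (0.0352) were called lower in D2. Sst and Npy were still called without D1 SS replicate 1, at -1.14 and -0.39, and Slc17a7 was not (-0.52, adjusted p = 0.0600). DESeq2 and limma voom each called 0 in 15 of the 17 comparisons of treatments and classes, and voom also in the other 2.

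Genes that feed or control the proteasome were read from a list of 30, of which 27 are in the file under these symbols. By the median ratio Ubb, a ubiquitin gene, was highest at 21.4, followed by Ubqln2, which carries tagged proteins to the proteasome, at 8.07. Nfe2l1 stood at 5.08 and Adrm1, a ubiquitin receptor of the base, at 4.04, both above every proteasome gene of the rule. Nfe2l2, a relative of Nfe2l1, stood at 1.09 and Uchl5, a deubiquitinase bound by Adrm1, at 0.988. In 17 of 17 comparisons of treatments and classes edgeR called 0 of the 27, with at most 25 at an unadjusted p under 0.05 (D2 against D1 in SS). DESeq2 called 25 lower there (23.4% of all genes) and 22 higher in D2 MS against SS (15.4%), and 0 in the other comparisons. The class difference of the 27 in SS went from a median of -0.61 to -0.23 without D1 SS replicate 1, with 1 at an unadjusted p under 0.05. On the background slope, 26 were called lower and 1 higher in D1 (36.3% and 49.7% of all genes), and 22 lower and 1 higher in D2 (27.3% and 34.2%), the higher one being Nfe2l2 at 0.28 ± 0.04 and 0.49 ± 0.10 (SE). In D2 MS against SS 26 of 27 were higher by a median of 0.40, and 0.13 with the density as a covariate.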

How the data were processed

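Total RNA of green fluorescent nuclei, sorted from bilateral nucleus accumbens punches, was made into libraries with a stranded kit for very low input. The deposited table holds raw counts per gene and an FPKM value for each library; featureCounts, DESeq2 and mm10 stand in the submitters' processing notes, without versions, and what aligned the reads, with which annotation and strand setting, is not given in the sources used here. A morphine and a cocaine cohort are named in the labels, and doses are not used here. The length behind the authors' FPKM equalled the whole GENCODE M21 gene span for 54281 of 54281 genes compared (tolerance 1e-06), so the counts are read as taken over spans. FPKM was used for nothing else. Identifiers matched the annotation with version for 54349 of 55401 genes and without it for 55141.

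Counts were tested with edgeR 4.0.16 (R 4.3.3), with TMM factors, a filter on low counts by group, robust quasi-likelihood tests and Benjamini-Hochberg adjustment over all genes tested; an adjusted p under 0.05 is a call. D1 (32 libraries) and D2 (29) were fitted apart and the 5 class comparisons jointly. The members and gene lists were chosen with earlier results of these data known. Alternatives were DESeq2 1.42.0, limma 3.58.1 voom, DESeq2 size factors, no filter, the replicate number as a block, a joint fit, the background as a covariate, and libraries left out. The scripts were tested on simulated data. Of 204 pairs of libraries within groups, 0 held identical counts. Total counts per library limit the precision of genes with few counts, such as Psme2b and Psmb8.

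Genes named are the 3 with the smallest p in each comparison, fixed members of each role, the 4 highest and 4 lowest ratios and those under the filter. For the slopes they are the 8 with the smallest p and the called inducible, cap and assembly genes. Psmd3, Psmb10 and Psmb11 among the slopes and Psma8 in D2 MS against SS stand outside that rule and were chosen after their values were seen. Promoter windows come from RefSeq.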

Additional observations from a re-analysis of the deposited data

Results flagged for a closer look

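Within groups of 7 to 9 libraries, 72 sets of values were tested for a library whose gap to its nearest neighbour is large for the range of its group (Dixon's test). Chance marks about 1 group in 20, and 15 were marked. D1 MS replicate 2 had an olfactory receptor density of 0.299 CPM per kb, below the next value of 0.477, and the density would account for 29.7% of its proteasome counts, where the next library had 56.5%. In D1 SS replicate 1 the ratio to that density was 40.3 for Psmb6 (next 6.26), 41.0 for Psma7 (6.48), 11.8 for Psmb5 (3.62), 27.7 for Psme4 (3.07) and 12.3 for Pomp (2.47). In D1 MS replicate 2 it was 12.8 for Psmb6 (next 5.07), 9.79 for Psma7 (3.28), 4.77 for Psmb5 (2.86) and 3.45 for Pomp (1.93). D1 SM replicate 2 stood out with Psma7 at 8.08 (next 4.49) and Psme4 at 3.79 (2.11). In D2, Psma7 was at 4.49 in SM replicate 4 (next 2.75) and Pomp at 2.96 in MS replicate 2 (2.35). Ratios in a library share its density as denominator, so these values are not independent.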

How the results depend on the processing

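The count of 0 called genes was kept under the alternatives run in 15 of 17 comparisons of treatments and classes. In D2 MS against SS, 25 were called by DESeq2 and 0 to 25 with each library left out, a choice made after seeing the data, with 25, 11 and 23 without MS replicates 4, 5 and 8. In D2 against D1 SS, 33 were called by DESeq2 and 29 with DESeq2's size factors in edgeR. With a threshold of 3 in place of 2 times the olfactory receptor density, 15 genes were above it in place of 30. Psme4 in D1 changed sign, to 0.0020 (SM) and 0.030 (MS) without D1 SS replicate 1, to 0.045 (MS) with the density as a covariate and to 0.024 (MS) with both. Psmd14 in D1 MS changed sign, to 0.035, 0.025 and 0.021 in the same order. The cause was not tested.

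The replicate number used as a block gave 24 called genes in D2 MS against SS (20.9% of all genes) in place of 0, and changed the count in no other comparison by over 1.5 times. The numbers were not treated as pairs. The median correlation of deviations between libraries of the same number was 0.02 in D1 and 0.02 in D2, against 0.01 and -0.0011 for other numbers. Of the libraries, 7 of 32 and 6 of 29 correlated best with their own number. No chance level was set for these counts, so pairing by number is not excluded.

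Counts over whole spans mix exons, introns and background, and the strand setting is unknown here. Ratios to the background carry the error of the density of each library, and low genes such as Psmb8, with 3 to 47 counts, rest on few reads. The SE of a difference did not follow the counts alone. In D2 MS against SS it was 0.17 for Psmb8 and 0.20 for Psma7, which had 100 to 394 counts.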
